A study of Mus musculus with 9 samples.

Results

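The GIMAP genes encode small GTP-binding proteins of lymphocytes, and all 8 members with a row in the deposited expression table were taken by gene symbol: Gimap1, Gimap3, Gimap4, Gimap5, Gimap6, Gimap7, Gimap8 and Gimap9. They are 8 of 23366 gene rows, and each was among the 10374 genes that averaged 1 FPKM or more and were tested. Expression was measured by bulk RNA sequencing, with an adapted SMART-Seq 2 protocol, in CD8+ T cells that had infiltrated B16F10 tumours, a transplantable melanoma of C57BL/6 mice. The WT group held 5 libraries from wild type hosts and the IL27ra KO group held 4 libraries from hosts lacking the interleukin 27 receptor chain Il27ra, on the same strain and with the same tumour. Values are FPKM, fragments scaled to transcript length and library size, which the authors further adjusted between libraries by TMM. Log2 changes are IL27ra KO minus WT on the log2(FPKM + 1) scale, and a gene passed, or was called, at an adjusted p under 0.05. The design asks which genes of tumour CD8+ T cells depend on interleukin 27. The labels give neither the cell types in which Il27ra is deleted, nor the age of the mice, nor whether each library is a separate animal, so the p-values refer to differences between libraries that may be technical in part.

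GIMAP proteins (GTPases of the immunity-associated protein family) sit on the membranes of lysosomes, the endoplasmic reticulum, vesicles or lipid droplets, and several are needed to keep resting T cells alive. Rats and mice without Gimap5 lose most peripheral T cells, and mice without Gimap1 lose mature T and B cells. The genes form a single cluster on mouse chromosome 6, and they are characteristic of quiescent lymphocytes, in which they are more abundant than in many activated ones.

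The libraries differed in ways that touch every result below. Il27ra itself measured 25.74, 5.14, 15.24, 14.43 and 15.79 FPKM in the libraries labelled WT replicates 1 to 5 and 4.09, 6.50, 5.62 and 7.80 FPKM in IL27ra KO replicates 1 to 4. The library labelled WT replicate 2 thus lay within the IL27ra KO range, and the difference of -1.10 on the log2 scale (SE 0.34) did not pass with it (adjusted p = 0.0996 with limma, and p = 0.0635 in an exact two-sided permutation test), whereas it was -1.42 without it (limma, adjusted p = 0.00352). In some other measures that library was unlike the IL27ra KO group. Its mean log2 level of T cell activation genes was 5.47, the highest of the 9. Its Lag3 was 94.08 FPKM against at most 3.57 FPKM in IL27ra KO. Its Mrc1, a macrophage marker, was 1.41 FPKM against at least 8.93 FPKM. For some genes of the dendritic cell list it overlapped that group. Its Cd74 was 164.57 FPKM and its H2-Ab1 145.07 FPKM, above the 148.08 and 128.58 FPKM of IL27ra KO replicate 4. Its mean log2 level of macrophage and monocyte genes, 3.22, was the highest of WT, against at least 4.1 in IL27ra KO. Macrophage and monocyte genes were higher in IL27ra KO, with 19 of 21 tested past the threshold, against 3.13% of all genes called higher. This list and the others below were chosen with earlier results of these data known. IL27ra KO replicate 4 stood apart from the other IL27ra KO libraries, with the highest CD8 T cell marker level and the lowest macrophage marker level of that group. Library size, estimated from the spacing of low FPKM values, was 1730000 to 4082000 fragments. These values were already adjusted by TMM, so the estimate includes that adjustment and is not the sequencing depth. The ribosomal RNA precursor Rn45s made up 23.9% to 53.8% of the FPKM summed over a library.

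Family members resemble each other, so the sequence shared between their transcripts was measured first. Gimap3 and Gimap5, the closest relatives in the family, were the only pair whose reference transcripts shared a stretch of 50 bases or more. The run of 140 identical bases lies inside the coding part of both transcripts, at bases 614 to 753 of Gimap3 and 427 to 566 of Gimap5 (GENCODE M21, transcripts of 1968 and 1953 bases), and it is shown because fragments from it fit either gene.
Gimap3 and Gimap5, shared coding stretch: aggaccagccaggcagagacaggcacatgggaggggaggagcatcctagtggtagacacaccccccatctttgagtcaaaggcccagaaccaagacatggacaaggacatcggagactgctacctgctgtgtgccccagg
Of all runs of 50 bases, 7.52% in Gimap3 and 4.53% in Gimap5 were shared, so the split of fragments between these genes is less certain than for the others. The longest stretch in common between any other pair was 17 bases. A read-through transcript annotated across Gimap7, Gimap1 and Gimap5, Gm28053, shares 1.39% of the runs of 50 bases in Gimap7, 4.78% of those in Gimap1 and 2.50% of those in Gimap5. Gimap1os is annotated antisense to Gimap1, and whether the counting used strand is not given in the sources used here.

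The 250 bases before the start of 4 members are shown because Gimap7, Gimap4 and Gimap1 had the closest profiles of level over the libraries together with Gimap5 and Gimap6, and because Gimap6 holds a match to the binding motif of STAT factors, which act below the interleukin 27 receptor. Sequences are RefSeq promoters on GRCm38.p6, 5′ to 3′ on the gene's strand, and capitals mark matches to any of 6 motifs searched on both strands.
Gimap7, chr6:48718371-48718620, plus strand: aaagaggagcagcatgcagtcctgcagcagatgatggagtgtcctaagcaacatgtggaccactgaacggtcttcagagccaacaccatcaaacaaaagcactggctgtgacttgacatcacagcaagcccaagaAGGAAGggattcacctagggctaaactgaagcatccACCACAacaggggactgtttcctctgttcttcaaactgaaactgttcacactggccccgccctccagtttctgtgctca
Gimap4, chr6:48684328-48684577, plus strand: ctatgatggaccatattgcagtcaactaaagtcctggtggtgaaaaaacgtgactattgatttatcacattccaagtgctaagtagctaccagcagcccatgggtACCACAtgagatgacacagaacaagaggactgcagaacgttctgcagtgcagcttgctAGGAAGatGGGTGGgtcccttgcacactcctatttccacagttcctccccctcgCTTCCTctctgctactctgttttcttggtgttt
Gimap1, chr6:48738797-48739046, plus strand: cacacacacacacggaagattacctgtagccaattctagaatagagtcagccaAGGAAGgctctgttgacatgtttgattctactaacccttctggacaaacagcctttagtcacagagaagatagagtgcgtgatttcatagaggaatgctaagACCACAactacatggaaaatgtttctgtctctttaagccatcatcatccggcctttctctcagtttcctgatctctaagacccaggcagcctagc
Gimap6, chr6:48708245-48708494, minus strand: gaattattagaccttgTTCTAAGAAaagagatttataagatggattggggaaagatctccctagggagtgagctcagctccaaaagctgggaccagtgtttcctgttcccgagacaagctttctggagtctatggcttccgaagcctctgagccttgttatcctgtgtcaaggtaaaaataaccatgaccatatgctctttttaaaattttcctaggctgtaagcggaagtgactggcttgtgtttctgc
Gimap8 has an entry for each of 2 starts, so 9 windows were searched, and a member counted if any of its windows held the motif, whereas the background is the share of single windows. The ETS motif AGGAAG was found in 7 of 9 windows, before every member but Gimap6, against 29.5% of 32851 windows of the same length. The RUNX motif TGTGGT was found before Gimap1, Gimap4 and Gimap7, against 14.0% of promoters, and the KLF motif CCACCC in 5 of 9 windows, against 28.1%. The STAT motif TTCNNNGAA was found before Gimap6 and Gimap8, against 7.02% of promoters, and its match before Gimap8, at the second of that gene's starts, overlaps an ETS match. The window at the first start of Gimap8 held 0 of the motifs. The TCF/LEF motif CTTTGA (13.8% of promoters) and the AP-1 motif TGANTCA (6.75%) were found before 0 of the 8 members. The stretch before Gimap1 lies within an exon of the antisense gene Gimap1os. Only the exact letters given were searched, so a window without a match may still hold another form of a motif. These matches describe the letters in the window and say nothing about binding in these cells.

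All 8 members were expressed in every library. Gimap4, whose product speeds up the death of T cells after an apoptotic stimulus, was the most abundant and averaged 164 ± 22.0 FPKM across WT libraries (SD, n = 5). Gimap6, which binds an autophagy adaptor of the GABARAP group and helps to maintain T cells, followed at 112 ± 22.3 FPKM. Gimap3, a relative of Gimap5, came after it at 72.6 ± 13.3 FPKM. FPKM is corrected for transcript length, so these levels can be set beside each other. The remaining WT means were 36.0 ± 7.54 FPKM for Gimap1, 32.8 ± 7.84 for Gimap7, 19.3 ± 5.46 for Gimap9, 16 ± 2.29 for Gimap5 and 12.1 ± 3.18 for Gimap8 (SD, n = 5 each). Each of the 3 most abundant members was above the next in all 5 WT libraries, as were Gimap7 above Gimap9 and Gimap5 above Gimap8. Gimap1 was above Gimap7, and Gimap9 above Gimap5, in only 4 of 5 WT libraries.

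Only Gimap7 and Gimap9 exchanged ranks by mean in IL27ra KO, and a further 2 pairs of neighbours in the order were split between libraries. Gimap4 was above Gimap6 in 2 of 4 libraries, with means of 95.5 ± 46.7 and 93.5 ± 33.9 FPKM (SD, n = 4). Gimap7 was above Gimap9 in 1 of 4, with means of 14.2 ± 6.74 and 17.9 ± 4.68 FPKM, and Gimap5 was above Gimap8 in 2 of 4, with means of 11.5 ± 4.62 and 11.3 ± 4.12 FPKM. As a share of the family's summed FPKM, Gimap4 made up 35.3% in WT and 28.4% in IL27ra KO, and Gimap7 made up 7.02% and 4.27%. Gimap6 took 24% and 28.6%, and Gimap3 took 15.8% and 18%. The composition of the family within a library therefore differed in mean between the groups as well as its sum; these shares were not tested.

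**Figure D1:**
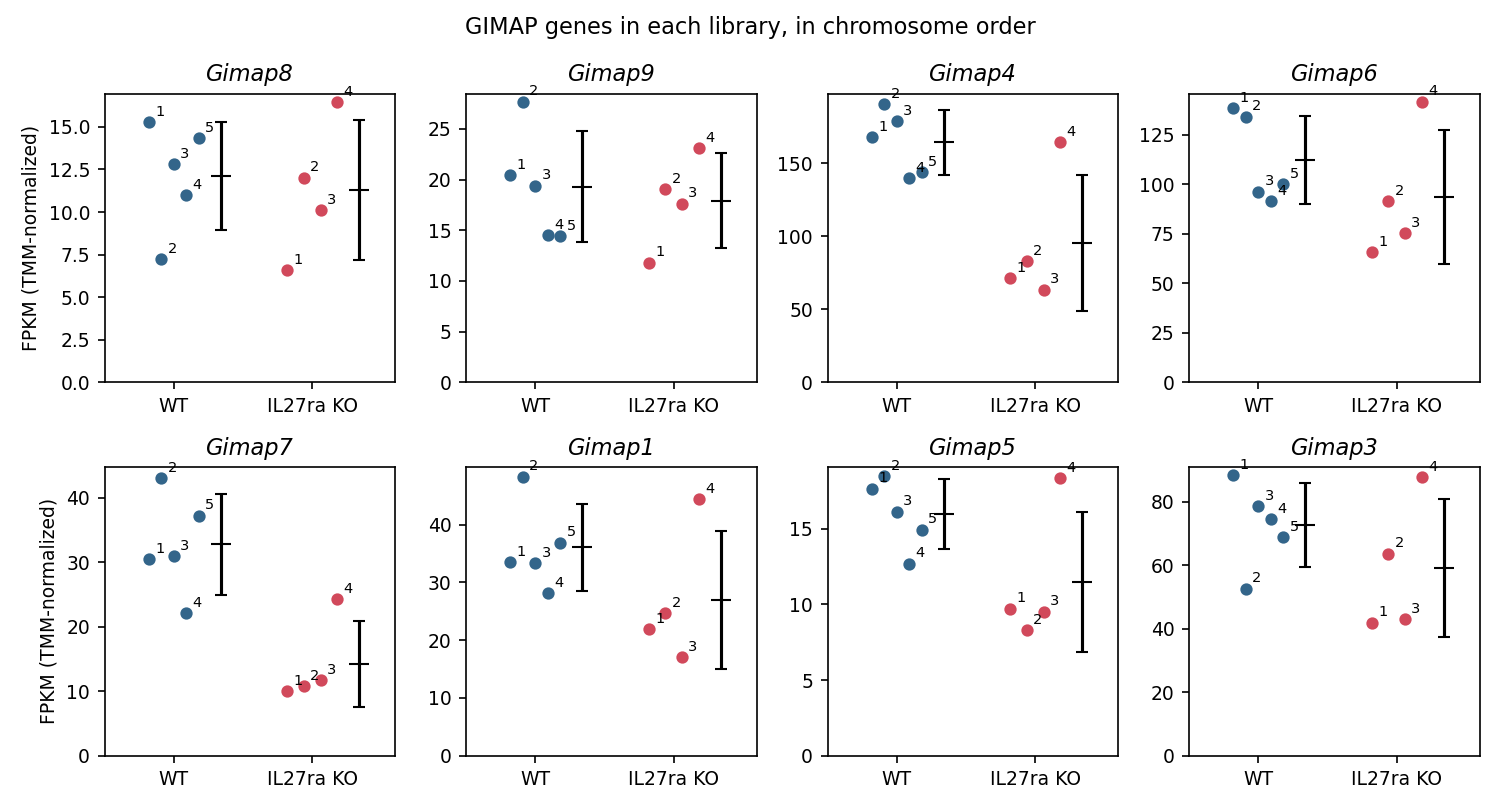
FPKM of each GIMAP gene in each library (points, numbered by replicate; blue WT, red IL27ra KO), with the mean and SD of each group beside them, in chromosome order. IL27ra KO replicates 1 to 3 lie below the WT range for Gimap4, Gimap6, Gimap7, Gimap1 and Gimap5, and IL27ra KO replicate 4 lies within or above it for every member.

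Gimap7 fell in IL27ra KO and was the only member past the threshold. Its human product stimulates GTP hydrolysis by partner GIMAP proteins. It measured 30.49, 43.03, 31.03, 22.17 and 37.27 FPKM in the libraries labelled WT replicates 1 to 5 and 10, 10.84, 11.78 and 24.27 FPKM in IL27ra KO replicates 1 to 4. The first 3 IL27ra KO libraries were low and close together, and the highest, replicate 4, was above WT replicate 4, so the groups overlapped. The WT mean was 2.31 times the IL27ra KO mean, and the log2 change was -1.21 (SE 0.27; limma with Benjamini-Hochberg adjustment over all genes tested, adjusted p = 0.0197). Of all genes tested, 1.11% were called lower and 0.954% had a log2 change as low as that of Gimap7. The call was lost without the library labelled WT replicate 5 (adjusted p = 0.056) and without IL27ra KO replicates 1, 2 or 3 in turn (adjusted p = 0.0903, 0.0837 and 0.0861), while the log2 change stayed between -1.48 and -1.08 over the 9 fits that left out 1 library each.

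Gimap4 came next in size and did not pass. It measured 167.99, 190.83, 179.23, 140.09 and 143.93 FPKM in the libraries labelled WT replicates 1 to 5 and 71.22, 83.00, 63.44 and 164.48 FPKM in IL27ra KO replicates 1 to 4. The first 3 IL27ra KO libraries were all below the lowest WT library, and replicate 4 was inside the WT range. The log2 change was -0.87 (SE 0.27; limma, adjusted p = 0.0986). Without IL27ra KO replicate 4 it was -1.17 and passed (limma, adjusted p = 0.00515).

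Gimap5 and Gimap1, both needed for T cell survival in mice, gave smaller differences of the same shape. Gimap5 measured 17.66, 18.50, 16.14, 12.70 and 14.94 FPKM in the libraries labelled WT replicates 1 to 5 and 9.72, 8.30, 9.53 and 18.34 FPKM in IL27ra KO replicates 1 to 4, a log2 change of -0.50 (SE 0.23; limma, adjusted p = 0.322). Gimap1 measured 33.52, 48.29, 33.37, 28.09 and 36.88 FPKM against 21.85, 24.62, 17.03 and 44.34 FPKM in the same order, a log2 change of -0.47 (SE 0.26; limma, adjusted p = 0.442). For both genes 3 of 4 IL27ra KO libraries were below every WT library, and replicate 4 was the second highest of all 9. Without IL27ra KO replicate 4 Gimap5 passed (-0.73; limma, adjusted p = 0.0441), while Gimap1 did not (-0.73; limma, adjusted p = 0.081).

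The other 4 members showed differences that were small beside their spread. Gimap6 measured 91.49 to 138.45 FPKM in WT, against 65.69, 91.32, 75.15 and 141.76 FPKM in IL27ra KO, a log2 change of -0.30 (SE 0.25; limma, adjusted p = 0.648). Its shape was that of Gimap5 and Gimap1. In IL27ra KO, 3 of 4 libraries were below every WT library, replicate 2 only just, and replicate 4 was the highest of all 9. Gimap3 measured 88.46, 52.63, 78.77, 74.54 and 68.79 FPKM in WT, against 41.94, 63.70, 43.07 and 87.91 FPKM in IL27ra KO, a log2 change of -0.34 (SE 0.25; limma, adjusted p = 0.593). Its lowest WT value was that of the library labelled WT replicate 2, which had the highest WT level of Gimap1, Gimap4, Gimap5, Gimap7 and Gimap9. Gimap8, which carries several GTP-binding domains, measured 15.26, 7.24, 12.82, 10.97 and 14.35 FPKM in WT, against 6.59, 12.02, 10.12 and 16.47 FPKM in IL27ra KO, and Gimap9 measured 14.38 to 27.70 FPKM in WT, against 11.79 to 23.10 FPKM in IL27ra KO. Their log2 changes of -0.12 (SE 0.26; 95% interval -0.69 to 0.45) and -0.10 (SE 0.24; 95% interval -0.62 to 0.42) leave room for changes of either sign, and both were above 0 without IL27ra KO replicate 1 (0.09 and 0.08).

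Counted together, 1 of 8 members was lower, 0 were higher and 7 did not pass, against 4.24% of all genes called in either direction. An unadjusted p under 0.05 was reached by 3 members, and by 1563 of all 10374 genes tested. All 8 log2 changes were below 0 on the deposited scale, where 46.9% of all genes were, with a median of -0.40 (range -1.21 to -0.10) against 0.02 over all genes; after scaling to CD8 T cell identity genes 6 of the 8 were above 0. The groups overlapped for all 8 members, whereas 6.73% of all genes tested did not overlap. Without IL27ra KO replicate 4, 632 of all 10374 genes and 3 members were called. Without both that library and the one labelled WT replicate 2, 868 of all genes and 5 members were called: Gimap1, Gimap3, Gimap4, Gimap5 and Gimap7. That last choice was made after seeing the data, and it takes out the IL27ra KO library in which the members were highest.

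The 3 IL27ra KO libraries with low GIMAP levels also had low levels of T cell marker RNA. The mean log2 level of the 8 members was 5.47, 5.46, 5.34, 5.08 and 5.29 in the libraries labelled WT replicates 1 to 5 and 4.46, 4.8, 4.58 and 5.52 in IL27ra KO replicates 1 to 4. The mean log2 level of 20 CD8 T cell identity genes, such as the CD3 and CD8 chains, was 5.97, 6.43, 6.04, 5.89 and 6.21 in WT and 4.91, 5.33, 5.19 and 6.18 in IL27ra KO. IL27ra KO replicates 1 to 3 were lowest on both measures, and replicate 4 was within the WT range for the identity genes and just above it for the GIMAP genes. Over all 9 libraries the measures had a Pearson r of 0.952 (0.921 after subtracting group means, 0.854 without IL27ra KO replicates 1 and 3). Within WT the orders differed: replicate 1 had the highest GIMAP level and the second lowest identity level. Over the 6 libraries other than IL27ra KO replicates 1 to 3 the measures had an r of 0.52. Of the identity genes, 3 of 20 were called lower, namely Il2rb, Cd3e and Cd8a, against 1.11% of all genes, all 20 were below 0, against 46.9%, and their median log2 change was -0.72. The calls of Cd3e and Cd8a held in only 3 and 2 of the 9 leave-one-out fits (without IL27ra KO replicate 1, limma gave adjusted p = 0.143 and 0.174), and both were lost without a filter, with a replicate block and with the macrophage covariate. The macrophage and monocyte genes had a mean log2 level of 1.78, 3.22, 1.83, 2.51 and 3.00 in WT and 5.31, 4.97, 5.41 and 4.1 in IL27ra KO, so the 3 libraries with least GIMAP RNA had most macrophage RNA. In bulk samples fewer T cells and less GIMAP RNA per T cell cannot be told apart.

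**Figure D2:**
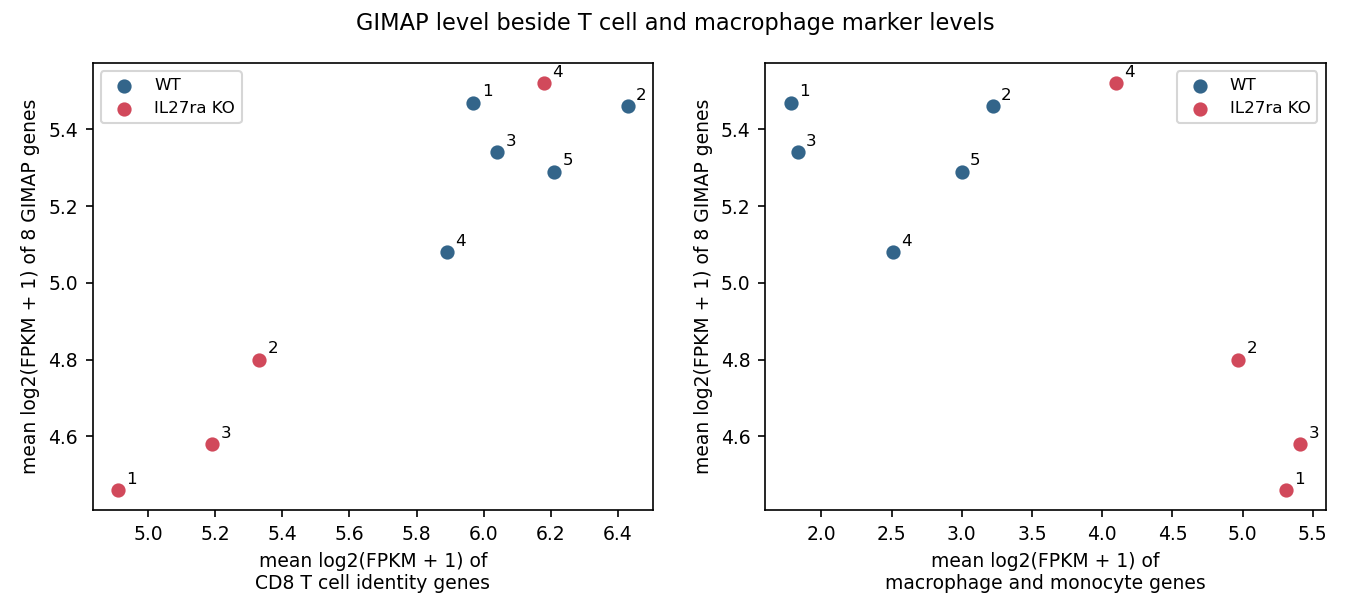
Mean log2(FPKM + 1) of the 8 GIMAP genes in each library (vertical axes) against that of CD8 T cell identity genes (left) and macrophage and monocyte genes (right); points are libraries, numbered by replicate. IL27ra KO replicates 1 to 3 lie apart, low in GIMAP and T cell identity RNA and high in macrophage RNA, and replicate 4 has the highest GIMAP level, 5.52.

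Set against the T cell genes, the mean level of the family was slightly higher in IL27ra KO. The GIMAP mean minus the identity mean was -0.78 ± 0.19 log2 units in WT (SD, n = 5) and -0.56 ± 0.09 in IL27ra KO (SD, n = 4), a difference of 0.22 that ran from 0.17 to 0.29 as each library was left out. Single WT libraries lay between -0.98 and -0.50 and single IL27ra KO libraries between -0.66 and -0.46, so the groups overlapped. Refitted with libraries scaled to the identity genes, Gimap7 (-0.54; 95% interval -1.11 to 0.04) and Gimap4 (-0.17; 95% interval -0.73 to 0.38) kept values below 0, whereas the other 6 members had values from 0.16 (Gimap5) to 0.57 (Gimap9). With limma 0 members passed on that scale, and 0 had an unadjusted p under 0.05. The scaling moved the median of all genes to 0.61, and relative to that median all 8 members were below 0, with Gimap7 at -1.15 and Gimap9 at -0.04. In a fit that took the level of macrophage markers, itself different between the groups, as covariate, only Gimap7 stayed below 0 (-0.82, SE 0.64; limma, adjusted p = 0.609). That fit called 0 members and cannot separate macrophage RNA from genotype.

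**Figure D3:**
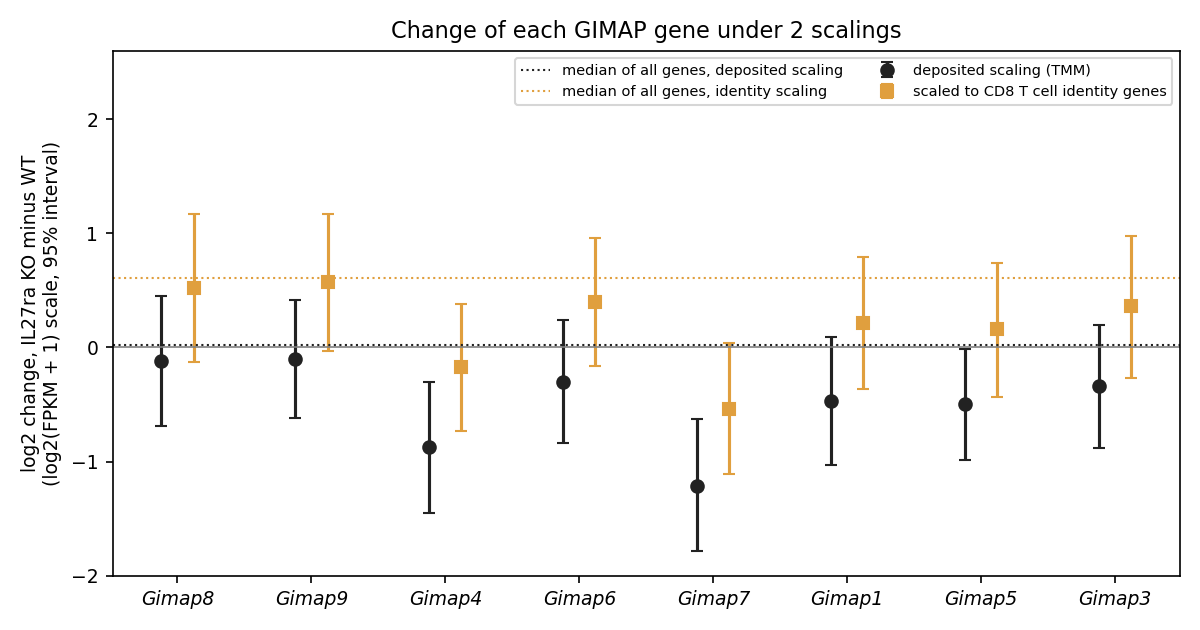
Log2 change of each GIMAP gene (IL27ra KO minus WT, with 95% interval) on the deposited TMM scale (black circles) and after scaling to CD8 T cell identity genes (orange squares); dotted lines give the median of all genes on each scale. All 8 members are below 0 on the deposited scale, and on the identity scale Gimap7 and Gimap4 stay below 0 while the other 6 are above it.

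Among themselves the members fell into a central group and a pair at the ends of the cluster. In chromosome order the genes are Gimap8, Gimap9, Gimap4, Gimap6, Gimap7, Gimap1, Gimap5 and Gimap3. Over the 9 libraries the 10 pairs among Gimap1, Gimap4, Gimap5, Gimap6 and Gimap7 had Pearson r of 0.74 to 0.93 on the log2 scale. Gimap3 and Gimap8, at opposite ends, had an r of 0.85 with each other (Spearman rho 0.88; 0.88 after subtracting group means), and either of them, or Gimap9, had 0.30 to 0.79 with the central 5. In the library labelled WT replicate 2, Gimap3 and Gimap8 were the lowest of the WT group while 5 other members were the highest. All points share their libraries and the level of T cell RNA in them, and IL27ra KO replicates 1 to 3 lie apart. Over the other 6 libraries Gimap3 and Gimap8 had an r of 0.89, and the pairs of the central group ranged from 0.19 to 0.88. The grouping was made after seeing these values and is a description without a test.

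**Figure D4:**
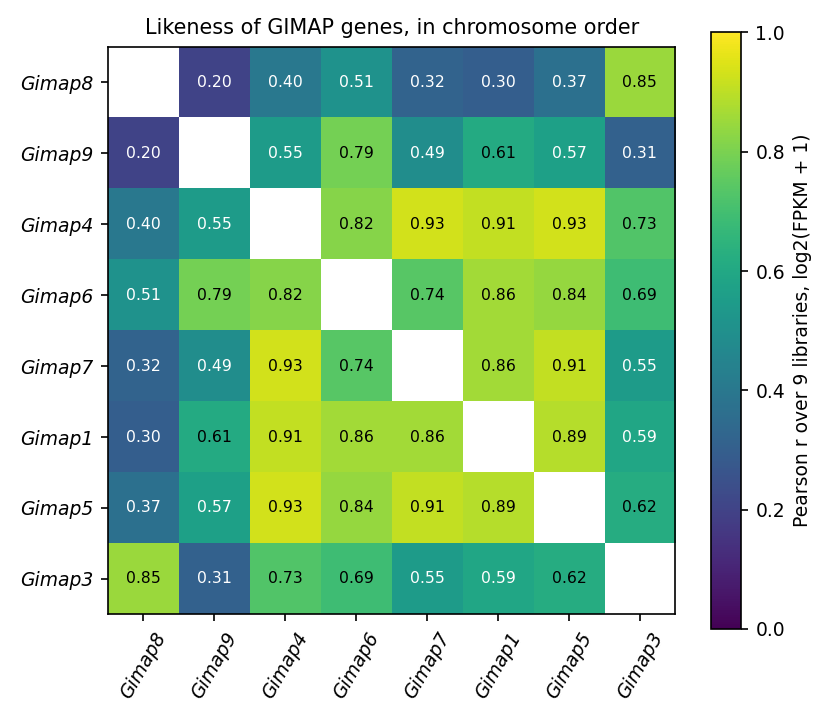
Pearson r between the log2(FPKM + 1) values of each pair of GIMAP genes over the 9 libraries, with genes in chromosome order on both axes and colour from 0 to 1. The outermost genes, Gimap8 and Gimap3, reach 0.85 with each other, whereas Gimap8 reaches 0.20 to 0.51 with the rest.

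The genes flanking the cluster differed in direction, with 2 higher and none called lower. Beyond Gimap3 lie Tmem176b and Tmem176a, membrane protein genes abundant in macrophages and dendritic cells. Tmem176a measured 3.80, 7.04, 3.22, 6.81 and 4.33 FPKM in the libraries labelled WT replicates 1 to 5 and 23.84, 21.18, 15.90 and 6.76 FPKM in IL27ra KO replicates 1 to 4, a log2 change of 1.49 (SE 0.32; limma, adjusted p = 0.0177). Tmem176b measured 16.95, 22.53, 11.01, 16.09 and 10.58 FPKM and then 63.84, 51.30, 60.70 and 17.38 FPKM in the same order, a log2 change of 1.48 (SE 0.35; limma, adjusted p = 0.0282). The high libraries were the 3 with most macrophage marker RNA, and replicate 4 overlapped WT for both genes. With the macrophage covariate the values were -0.23 (SE 0.60) for Tmem176a and -0.13 (SE 0.70) for Tmem176b (limma, adjusted p = 0.887 and 0.95). The covariate itself differed between the groups, so that fit cannot separate macrophage RNA from genotype. The part of macrophage RNA in this result was not tested. Without IL27ra KO replicates 1, 2 or 3 in turn neither gene passed, with adjusted p from 0.0626 to 0.0773 for Tmem176a and from 0.0974 to 0.119 for Tmem176b, and Tmem176b was also lost without the libraries labelled WT replicates 1, 3 or 5. These neighbours overlap in the annotation on opposite strands, so fragments may be shared between them.

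On the other side, next to Gimap8, Zfp775 and Repin1, zinc finger genes, had log2 changes of 0.03 and -0.37 and Lrrc61 had 0.10 (limma, adjusted p = 0.972, 0.525 and 0.884). Rarres2 and Gm5111, which lie among them, and Aoc1 and Doxl1 beyond the Tmem176 genes were listed at 0 in all 9 libraries. Zfp467 and Atp6v0e2, further out, had log2 changes of 0.66 and 0.31 (limma, adjusted p = 0.37 and 0.558). The value of Repin1 was thus near the members' median of -0.40. In all, 2 of 7 tested neighbours were higher, against 3.13% of all genes, 0 were called lower, and 1 of 7 was below 0.

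**Figure D5:**
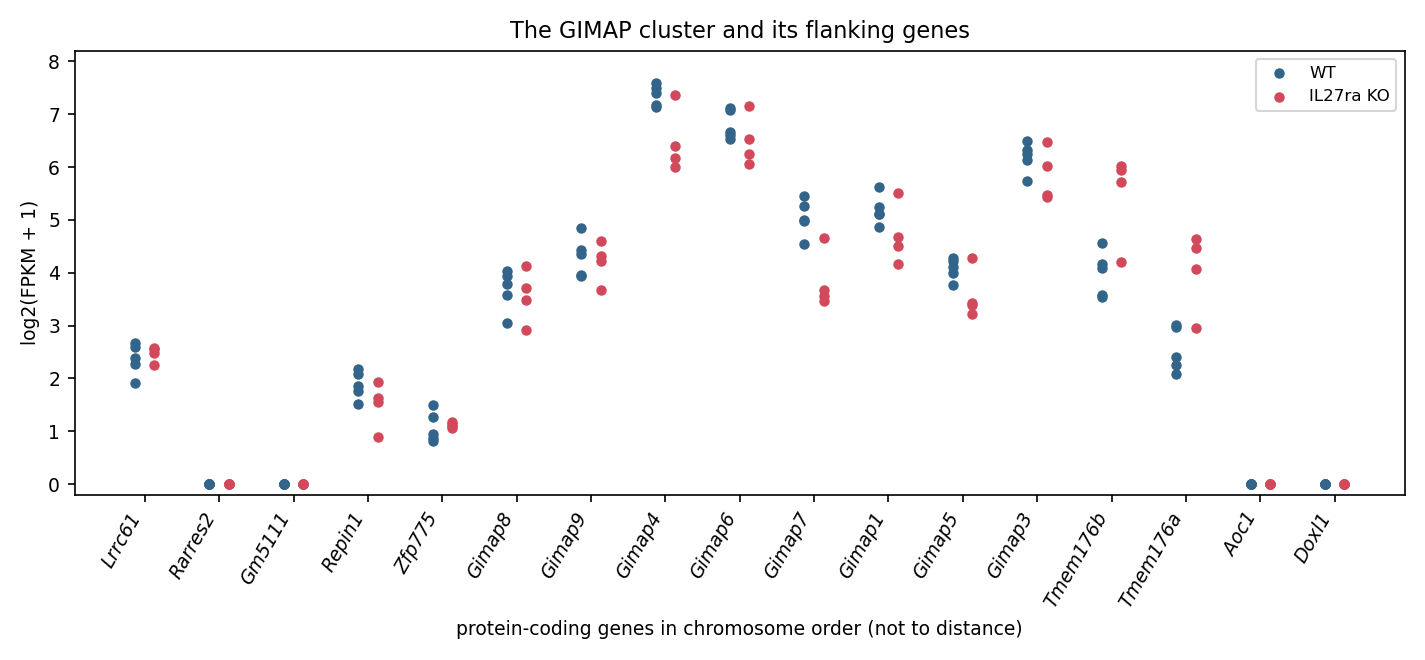
Log2(FPKM + 1) of the protein-coding genes of the cluster and its flanks in each library (blue WT, red IL27ra KO), in chromosome order and not to distance. The 8 GIMAP genes stand above their neighbours on the Zfp775 side, and Tmem176b and Tmem176a are higher in 3 of 4 IL27ra KO libraries.

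Other cell types that express GIMAP genes were checked by their markers. Of the endothelial genes, 3 of 14 were abundant enough to test and 0 were called (limma, 0 with an unadjusted p under 0.05). Their summed level was 7.85 to 21.7 FPKM in WT, against 18.7 to 22.1 FPKM in IL27ra KO, mostly from Eng and Pecam1, which leukocytes also express. Of the defining endothelial genes, Cdh5 reached no more than 0.33 FPKM, Emcn 0.18 FPKM in 1 IL27ra KO library, and Tie1 was at 0 in all libraries. Kdr was at 0, 0, 0, 0 and 0.04 FPKM in WT and 0.52, 0.21, 0.29 and 0.11 FPKM in IL27ra KO, low but higher in every IL27ra KO library. B cell genes summed to 0.63 to 2.04 FPKM in WT, against 1.36 to 5.13 FPKM in IL27ra KO, with Ms4a1 at 0 in all libraries. Ncr1, which marks NK cells, reached at most 0.58 FPKM and Cd4 at most 0.45 FPKM, while Foxp3 measured 5.53, 0, 2.56, 1.16 and 4.70 FPKM in WT and 0.52 to 1.07 FPKM in IL27ra KO. In the CD4 T cell list Cd40lg was called higher (log2 change 0.98; limma, adjusted p = 0.0407) and Ikzf2 lower (-1.45; limma, adjusted p = 0.00851), and in the NK cell list Tyrobp, which myeloid cells also express, was higher (3.01; limma, adjusted p = 0.00816). Of the 5 tested genes in the NK cell list, 4 were below 0, and the median log2 change was -0.27. The part of such cells in the GIMAP values was not tested.

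None of the genes whose products work with GIMAP proteins passed. Of 12 tested partners, which include the BCL-2 family proteins and the GABARAP and LC3 autophagy adaptors, limma called 0. An unadjusted p under 0.05 was reached by 3 of them, against 1563 of all 10374 genes. Their median log2 change was -0.07, against 0.02 over all genes. The chaperone Hspa8 measured 699 ± 69.2 FPKM in WT, against 813 ± 32.0 FPKM in IL27ra KO (SD, n = 5 and 4), a log2 change of 0.22 (SE 0.21; limma, adjusted p = 0.697), and Gabarap measured 67.9 ± 17.4 and 72.2 ± 6.57 FPKM (0.12; limma, adjusted p = 0.867).

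Genes of lymphocyte quiescence and recirculation, the state in which GIMAP genes are characteristically expressed, were mostly on the other side of 0 from the members on the deposited scale. Of 19 tested, 1 was higher, against 3.13% of all genes, so that a single call says nothing particular about the list, and 18 had log2 changes above 0, against 53.1% of all genes, with a median of 0.33. The one called, Klf2, a transcription factor that maintains quiescence, measured 9.22, 7.76, 10.06, 15.02 and 8.01 FPKM in WT, against 27.66, 27.40, 20.36 and 18.54 FPKM in IL27ra KO. All 4 IL27ra KO libraries were above all 5 WT libraries, and the log2 change was 1.17 (SE 0.22; limma, adjusted p = 0.00768). The call was lost with the macrophage covariate (1.20; limma, adjusted p = 0.402) and with a replicate block (1.11; limma, adjusted p = 0.0668). Of 20 T cell activation genes, 11 were lower, against 1.11% of all genes, with a median log2 change of -1.28. That list was chosen with earlier results of these data known, so its count is a description only. IL27ra KO replicate 4, whose GIMAP level was like that of WT, lay between the groups in activation: its mean log2 activation level was 4.08, against 3.41 to 3.69 in the other IL27ra KO libraries and 4.64 to 5.47 in WT. Its mean log2 quiescence level, 4.87, was the highest of the 9 libraries. The groups overlapped in that level. It was 4.53, 3.76, 4.42, 4.47 and 3.7 in the libraries labelled WT replicates 1 to 5. In IL27ra KO replicates 1 to 4 it was 4.34, 4.67, 4.5 and 4.87.

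Of 24 lymphocyte survival genes, 1 was higher and 1 was lower, against 3.13% and 1.11% of all genes, so these calls say nothing particular about the list. The median log2 change of the list was -0.10. Il2rb, a receptor chain for interleukins 2 and 15, fell from 169 ± 34.7 FPKM in WT to 68.3 ± 24 FPKM in IL27ra KO (SD, n = 5 and 4; log2 change -1.33, SE 0.25; limma, adjusted p = 0.00719). Il2rb is itself in the identity list, so identity scaling takes out part of its own fall. With that scaling it was -0.63 (limma, adjusted p = 0.0978). With the macrophage covariate it was -0.53 (limma, adjusted p = 0.69) and with a replicate block -1.24 (limma, adjusted p = 0.0533). The call ended in each of these fits. Bcl2a1a was listed at 0 in all 5 WT libraries and measured 10.95, 3.15, 3.68 and 1.49 FPKM in IL27ra KO (limma, adjusted p = 0.00239). Its log2 change was 2.29 (SE 0.35). The macrophage marker level was also higher in all 4 of these libraries, and lowest among them in replicate 4. With that level as covariate the Bcl2a1a value was 1.18 (SE 0.8; limma, adjusted p = 0.57). The covariate itself differed between the groups, so that fit cannot separate macrophage RNA from genotype. The part of macrophage RNA in the Bcl2a1a values was not tested. Bcl2a1a belongs to a family of near-identical copies, between which fragments may be split. Bcl2 and Bcl2l1, survival factors of resting and activated T cells, had log2 changes of -0.14 and -0.13 (limma, adjusted p = 0.847 and 0.871).

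Over the 9 libraries, the genes whose log2 level was most like the GIMAP mean were ranked among the 5714 genes that averaged 5 FPKM or more. The 8 most alike were Baz1a (Pearson r 0.972), Lck (0.971), Cnn2 (0.970), Apol7e (0.950), Ctsw (0.942), Tbc1d10c (0.930), H2-Q9 (0.928) and Atp8b4 (0.928), and 20 genes reached 0.9. Lck, the kinase that starts T cell receptor signalling, is also 1 of the identity genes. It measured 132.51, 165.58, 126.37, 106.30 and 136.28 FPKM in WT, against 67.76, 91.45, 78.70 and 171.39 FPKM in IL27ra KO, high in replicate 4 as the GIMAP genes were. After subtracting group means the 8 r values were 0.915 to 0.982, without IL27ra KO replicates 1 and 3, the libraries with GIMAP levels farthest from the median, they were 0.755 to 0.938, and over the 6 libraries other than IL27ra KO replicates 1 to 3 they were 0.45 to 0.86. None of the 8 passed the comparison of the groups (limma, adjusted p from 0.201 to 0.719).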

How the data were processed

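CD8+ T cell RNA from tumours was measured in 9 libraries, 5 WT and 4 IL27ra KO, grouped by the genotype in their titles. The deposited values are gene-level FPKM with TMM normalization, per the labels; the submitters' processing notes name TopHat, RSEM, DESeq and mm9, without versions or roles. TMM takes most genes to be level between libraries, so a large change in the cells a library holds may shift its scaling. Whether it did so here was not tested. RSEM divides fragments that match several genes, and SMART-Seq 2 counts PCR copies as fragments. FPKM values are not counts, so log2(FPKM + 1) was fitted with limma 3.58.1 in R 4.3.3 (eBayes with a trend) over the 10374 genes averaging 1 FPKM or more, as IL27ra KO minus WT; adjustment was by Benjamini-Hochberg and the threshold was 0.05. Fold changes on this scale understate those of low genes. The procedure was tested on simulated data.

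The table has 23366 symbols, of which 21732 matched GENCODE M21 names, and 0 columns of other samples. Depth is not given with the values. Comparing low values with transcript lengths gave an estimate of library size that includes the TMM adjustment. In it 67.1% to 69.9% of low values in 2765 genes lay within 0.1 of whole fragments, too few to recover counts. By that estimate each library held 38 to 798 fragments per member, fewest for Gimap7.

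The members and gene lists were chosen with earlier results of these data known. Named genes were all members, Il27ra, tested neighbours, up to 4 called members of each list by smallest p or else the 2 most abundant, and the 8 genes most like the GIMAP mean. Bcl2, Bcl2l1 and the defining markers of other cell types fall outside that rule and were added. Marker lists are given by their counts. Alternatives changed the pseudocount (0.1 or 5), the filter (none or 5 FPKM) and the scaling (quantile, total without Rn45s, identity genes), and included robust and weighted fits, a macrophage covariate, a replicate block and fits without single libraries. Promoters came from RefSeq (GRCm38.p6), with an entry for all 8 members.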

Additional observations from a re-analysis of the deposited data

Results flagged for a closer look

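In 66 groups of 4 or 5 libraries, over the genes reported here, 5 held a single library far from the others, where chance gives about 1 in 20 groups. These groups share libraries and hold genes chosen for their likeness, so the number is no evidence of more outlying libraries than chance gives. IL27ra KO replicate 4 was the outlying library for 2 members. Gimap7 measured 24.27 FPKM there against 10 to 11.78 FPKM in the other IL27ra KO libraries, and Gimap5 measured 18.34 FPKM against 8.30 to 9.72 FPKM. The same library lay apart for 2 of the genes most like the GIMAP mean, which their choice favours: Cnn2 at 150.04 FPKM against 71.19 to 81.62 FPKM and Tbc1d10c at 64.14 FPKM against 27.50 to 32.82 FPKM. The library labelled WT replicate 2, whose Il27ra level lay in the IL27ra KO range, had 139.40 FPKM of Ctsw, a cathepsin of cytotoxic lymphocytes, against 93.07 to 101.19 FPKM in the other WT libraries.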

How the results depend on the processing

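Gimap7 was below 0 in all 21 alternatives and past the threshold in 14. The count of members called was 0 with identity scaling (limma, 0 at an unadjusted p under 0.05) and with the macrophage covariate (1), 3 with library quality weights, 5 without both the library labelled WT replicate 2 and IL27ra KO replicate 4, and 0 to 3 as each library was left out. Genes called numbered 440 in the main fit, 219 with the filter at 5 FPKM, 1386 with identity scaling (1334 higher and 52 lower, against 325 and 115), 974 with weights, 7 with the macrophage covariate, 868 without both libraries and 226 to 632 as each was left out. Called neighbours numbered 0 without a filter and with the macrophage covariate, and 0 to 2 as each library was left out. The Il27ra change was -0.48 with identity scaling, -1.42 with weights, 0.68 with the macrophage covariate, -1.53 without both libraries and -1.42 to -0.88 as each was left out. Replicate numbers did not pair the libraries: deviations of same-numbered libraries had correlations of -0.15 to 0. With the replicate block 273 genes, 0 members (2 at an unadjusted p under 0.05) and 0 neighbours were called, and Gimap7 changed by -1.15 (limma, adjusted p = 0.108).

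Identity scaling turned the direction of 14 genes: Gimap1 (0.21), Gimap3 (0.36), Gimap5 (0.16), Gimap6 (0.40), Gimap8 (0.52), Gimap9 (0.57), Repin1 (0.17), Baz1a (0.28), Lck (0.24), Cnn2 (0.19), Ctsw (0.21), Tbc1d10c (0.31), H2-Q9 (0.44) and Atp8b4 (0.47). The macrophage covariate turned 21: Gimap1 (0.01), Gimap3 (1.00), Gimap4 (0.13), Gimap5 (0.17), Gimap6 (0.41), Gimap8 (1.12), Gimap9 (0.28), Gabarap (-0.35), Zfp467 (-0.53), Atp6v0e2 (-0.06), Zfp775 (-0.12), Tmem176a (-0.23), Tmem176b (-0.13), Baz1a (0.07), Lck (0.18), Cnn2 (0.03), Apol7e (0.45), Ctsw (0.08), Tbc1d10c (0.23), H2-Q9 (0.65) and Atp8b4 (0.26). With that covariate, which itself differed between the groups, 0 members passed. The SE of the turned GIMAP values ran from 0.45 (Gimap3) to 0.62 (Gimap1), against 0.23 to 0.27 in the main fit. Their direction is therefore poorly determined in that fit. Zfp775 was -0.14 with quantile normalization and -0.04 with the replicate block. As each library was left out, Gimap8 ran from -0.31 to 0.09 (-0.47 without both libraries), Gimap9 from -0.23 to 0.08, Lrrc61 from -0.02 to 0.17 and Zfp775 from -0.04 to 0.13. The cause of these shifts was not tested.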
